A study of Mus musculus with 6 samples.

Results

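The Hox genes are the homeobox transcription factor genes of the Hoxa, Hoxb, Hoxc and Hoxd clusters. They were described here in cultured fibroblasts of the mouse distal colon. They were chosen by symbol, as every gene named Hox with a cluster letter and a paralogue number, which gave 39 genes of the 38896 listed: 11 in Hoxa, 10 in Hoxb, 9 in Hoxc and 9 in Hoxd. The 6 libraries came from 3 mice aged 6 weeks, numbered 1716, 1717 and 1718 in the labels, and each mouse gave 1 control library and 1 library labelled DSS. Per the series' design text, fibroblasts were isolated from the distal colon, grown for 2 passages and kept for 24 h in control medium or in a conditioned medium described as inflammatory. The libraries labelled DSS were taken as those of the inflammatory medium. How that medium was made was not given in the sources used here, and neither was the strain of the mice. The labels put the words control and DSS under genotype, but both come from the same 3 animals. Each group therefore holds 3 primary cultures, for which the labels name no sorting or cloning.

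Hox proteins bind DNA through a homeodomain and give cells along the body axis their positional identity. Within a cluster, genes with low paralogue numbers are switched on first and furthest forward in the embryo, and genes with high numbers later and further back. Fibroblasts of adult tissues are known to keep a Hox pattern that reflects where in the body they came from, and posterior genes such as Hoxa13 and Hoxd13 are known for their role in the hindgut. Polycomb complexes keep Hox genes silent, trithorax proteins keep them active, retinoic acid activates the low-numbered genes, and TALE homeodomain proteins such as Pbx and Meis bind DNA together with Hox proteins.

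On GRCm38, the 11 Hoxa genes lay on chromosome 6 from 52155367 to 52260880, a span of 105.5 kb. The Hoxb genes covered 173.9 kb of chromosome 11 from 96194316 to 96368254. The Hoxc genes covered 115.7 kb of chromosome 15 from 102921131 to 103036856, and the Hoxd genes 96.9 kb of chromosome 2 from 74668225 to 74765142. Gene models within a cluster overlap: 6 pairs of Hox genes did so, namely Hoxa3 with Hoxa4, Hoxa5 and Hoxa6, Hoxb3 with Hoxb4, Hoxd3 with Hoxd4, and Hoxd10 with Hoxd11.

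The 250 bases before the start of 3 genes are shown because the results turn on them: Hoxb4 was the gene called higher in DSS, and Hoxd4 and Hoxd13 lie in 1 cluster and were highest in different mice. The sequences are RefSeq's on GRCm38.p6, all on the plus strand, 5′ to 3′, with the dinucleotide CG in capitals. The windows are chr11:96318017-96318266 for Hoxb4, chr2:74721728-74721977 for Hoxd4 and chr2:74667975-74668224 for Hoxd13.
Hoxb4: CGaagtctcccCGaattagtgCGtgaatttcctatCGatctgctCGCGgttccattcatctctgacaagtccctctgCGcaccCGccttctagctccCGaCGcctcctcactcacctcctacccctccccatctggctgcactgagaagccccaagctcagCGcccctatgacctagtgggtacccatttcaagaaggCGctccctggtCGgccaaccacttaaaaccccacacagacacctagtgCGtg
Hoxd4: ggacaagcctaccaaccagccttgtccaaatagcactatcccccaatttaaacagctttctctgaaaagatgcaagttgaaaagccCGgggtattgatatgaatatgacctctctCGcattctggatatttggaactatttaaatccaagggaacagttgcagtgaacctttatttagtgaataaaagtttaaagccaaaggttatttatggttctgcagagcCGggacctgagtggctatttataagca
Hoxd13: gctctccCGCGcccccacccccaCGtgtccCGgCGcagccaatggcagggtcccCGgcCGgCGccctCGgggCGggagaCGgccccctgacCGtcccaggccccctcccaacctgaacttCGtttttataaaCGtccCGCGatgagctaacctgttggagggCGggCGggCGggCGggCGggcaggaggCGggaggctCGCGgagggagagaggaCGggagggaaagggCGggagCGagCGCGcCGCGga
The CG dinucleotide occurred 14 times before Hoxb4, 3 times before Hoxd4 and 31 times before Hoxd13. Its median was 12.5 over 24 windows of 22 Hox genes, with a range of 2 to 35, and 6 over all 32851 windows of the RefSeq table. Of the letters searched on both strands, TTTATNG, a site form of posterior Hox and Cdx proteins, was in the windows of Hoxd4 and Hoxb8 and in 9.8% of all windows. TGATNNAT, a form bound by Hox with Pbx, was in 4 of 24 Hox windows (Hoxa2, Hoxb1, Hoxb8 and Hoxd11) and in 7.7% of all. TGACAG, the Meis form, was in the windows of Hoxa2 and Hoxa3 and in 15.9% of all. The NF-kappaB and the interferon response motif were in none of the 24 Hox windows and in 1.2% and 3.0% of all. A match describes letters and is not a binding site.

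The clusters also hold microRNA genes of the miR-10 and miR-196 families, which target Hox messenger RNAs. Their mature sequences are shown because the host position ties each one to the Hox genes beside it. The seed, bases 2 to 8, is in capitals and is the same within a family.
miR-10a-5p: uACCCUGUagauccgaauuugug
miR-10b-5p: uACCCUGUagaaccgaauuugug
miR-196a-5p: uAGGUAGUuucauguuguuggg
miR-196b-5p: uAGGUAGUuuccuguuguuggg
Counted from 1 at the 5′ end, miR-10a-5p and miR-10b-5p differ by the substitution U12A, and miR-196a-5p and miR-196b-5p by A12C. The mature form of miR-10a-5p lies on chromosome 11 from 96317186 to 96317208, before the Hoxb4 window and inside the Hoxb3 gene model, and miR-10b-5p on chromosome 2 from 74726074 to 74726096, inside the Hoxd4 gene model. These libraries were not made for small RNAs, so only precursor transcripts could be counted. The Mir10a precursor had 4, 6 and 3 estimated counts in the control libraries of mice 1716, 1717 and 1718 and 8, 7 and 8 in their DSS libraries. Those counts did not overlap between the groups, which held for 34.2% of all genes tested, but they were too low to be tested. Mir10b, Mir196a-1, Mir196a-2 and Mir196b had 0 or 1 count in every library.

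The libraries held 17293680 to 19482938 estimated counts, of which 3973.8 to 4942.1 fell on Hox genes, and levels are given in CPM, the counts scaled to a common library size. Checked against marker genes of 7 cell types, all 9 fibroblast markers were present, at summed levels of 37350 to 44060 CPM in control and 20130 to 24720 CPM in DSS. Collagens Col1a1, Col1a2 and Col3a1 make up most of that sum and fell, as did Pdgfrb and Vim, while Pdgfra rose (log2 fold change 0.71, adjusted p 0.0178 by edgeR). With the mouse as a block Dcn was called higher as well (0.46, adjusted p 0.00385 by edgeR) and Thy1 lower (-0.33, adjusted p 0.00861). Of 9 epithelial markers, 7 were under 1 CPM in every library, Epcam, Krt8 and Krt18 included. Cdh1 stood at 0.613 to 1.341 CPM over the 6 libraries. Muc2 fell from 8.159, 11.62 and 7.739 CPM in control to 2.339, 2.554 and 1.48 CPM in DSS (log2 fold change -2.11, adjusted p 0.00269 by edgeR). Leukocyte markers summed to 1474 to 2180 CPM in control and 941.4 to 1446 CPM in DSS, with Cd3e and Cd79a under 1 CPM. Most of that sum was Lyz2, which fell with Itgam, while Cd68 rose (log2 fold change 0.71, adjusted p 0.0158 by edgeR). Csf1r was called lower with the block alone (-0.37, adjusted p 0.0157 by edgeR). Smooth muscle and Cajal cell markers summed to 1173 to 1249 CPM in control and 921.1 to 1033 CPM in DSS, with Actg2 lower (-0.93, adjusted p 0.00221) and Myh11 higher (0.43, adjusted p 0.0278). Des was called lower with the block alone (-0.925, adjusted p 0.00078 by edgeR). Endothelial markers summed to 12.18 to 21.44 CPM and mesothelial ones to 1.824 to 4.219 CPM over the 6 libraries. Enteric glia and neuron markers summed to 103.6 to 343.5 CPM in control and 62.59 to 274.8 CPM in DSS. Fewer cells of a type and less RNA per cell cannot be told apart in these bulk cultures.

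Levels of different genes were compared as CPM per kb of transcript. The colon cultures carried Hox RNA from paralogue 1 to paralogue 13, with 28 of 39 genes at 1 CPM or more in all 6 libraries, 6 genes under 1 CPM in all of them and 5 in between. Both genes of paralogue number 12, Hoxc12 and Hoxd12, were among the 6. In control cultures Hoxb genes made up 41.5% ± 1.9 (SD, n = 3) of the summed Hox level per kb, Hoxa genes 31.3% ± 4.4, Hoxd genes 20.9% ± 1.9 and Hoxc genes 6.2% ± 4.1. With curated transcripts alone the order of the first 2 clusters turned, to 34.5% for Hoxb and 38.2% for Hoxa, since 30.9% of Hox counts lay in predicted transcripts. Paralogues 9 to 13 held 42.7% ± 5.7 of the level, paralogues 4 to 8 held 34.3% ± 3.8 and paralogues 1 to 3 held 23.1% ± 2.7 (n = 3). The low-numbered share rested on the predicted models: without them it was 10.6%, and that of paralogues 9 to 13 was 56.3%. In DSS cultures the same 3 shares were 39.5% ± 4.4, 37.8% ± 4.1 and 22.7% ± 2.2, so the groups overlapped. Within mice 1716, 1717 and 1718 the share of paralogues 4 to 8 went from 33.6%, 38.4% and 30.8% in control to 38.5%, 41.5% and 33.4% in DSS, higher in 3 of 3. That of paralogues 9 to 13 went from 40.9%, 38.1% and 49.1% to 36.4%, 37.5% and 44.6%, lower in 3 of 3. A share falls when another rises. In summed CPM, paralogues 9 to 13 changed by -0.18, 0.06 and -0.15 on the log2 scale in these mice, so the sum rose in mouse 1717. Paralogues 4 to 8 changed by 0.16, 0.19 and 0.14. With 3 pairs no exact test of these shares can pass the threshold, and none was run.

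**Figure D1:**
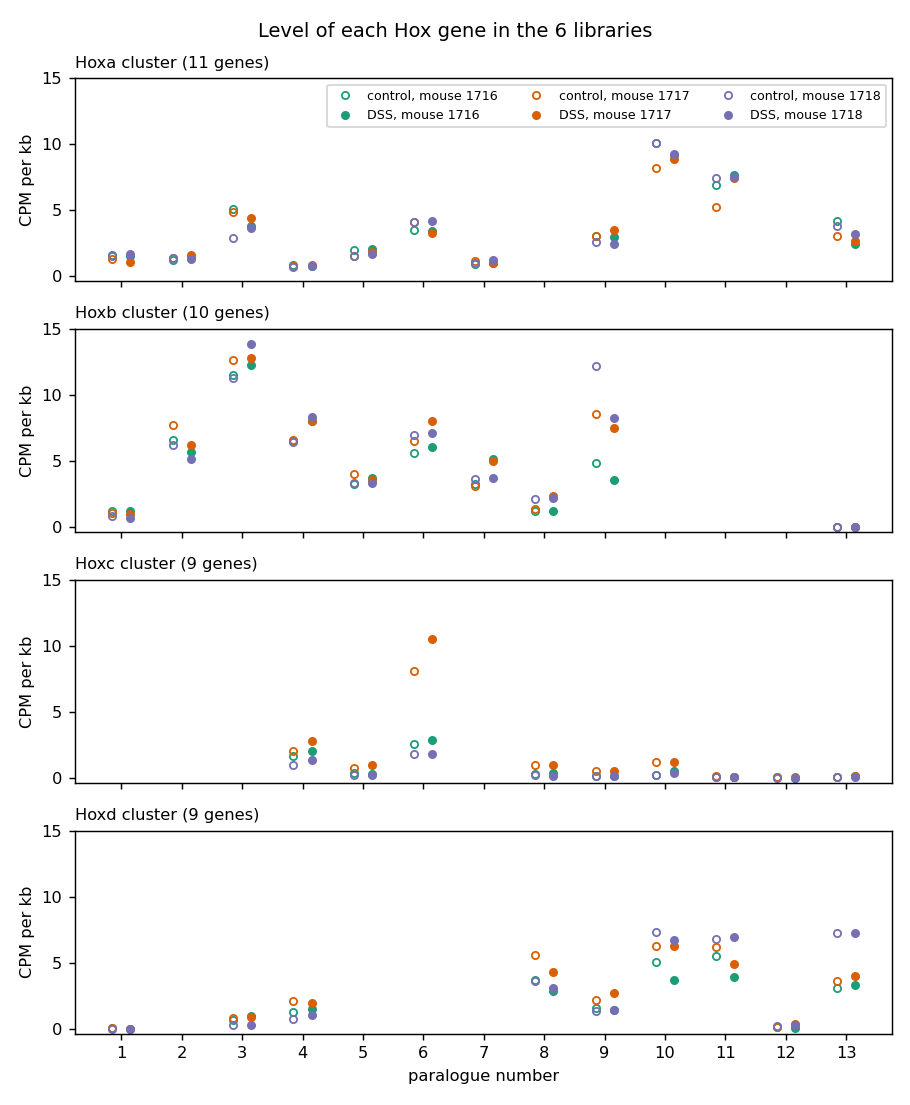
Level of each Hox gene in CPM per kb (vertical axis) by paralogue number (horizontal axis), 1 panel per cluster and 1 point per library, open for control and filled for DSS, coloured by mouse. Hoxb3 and Hoxa10 lead, Hoxc11 to Hoxc13 and Hoxb13 lie near 0, and the libraries of mouse 1717 stand above the others for Hoxc6.

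By its mean Hoxb3 had the highest control level, 11.82 ± 0.73 CPM per kb (SD, n = 3), followed by Hoxa10 at 9.50 ± 1.09 and Hoxb9 at 8.55 ± 3.69. That rank is not firm: Hoxb9 reached 12.23 CPM per kb in mouse 1718, above Hoxb3 in that mouse (11.27), and 76% of the Hoxb3 counts lay in predicted transcripts, which were given the length of the curated ones. For Hoxa3 100% of the counts did. Hoxb2, Hoxa11, Hoxb4, Hoxb6, Hoxd10 and Hoxd11 came next, from 6.87 down to 6.13 CPM per kb. Of the 38 neighbouring pairs in this order, 4 did not overlap between their control libraries: Hoxb3 over Hoxa10, Hoxb7 over Hoxa9, Hoxa9 over Hoxa5, and Hoxa2 over Hoxa7. The order within the rest is therefore not resolved by 3 libraries. The most posterior genes were split: Hoxd13 stood at 4.65 ± 2.27 CPM per kb and Hoxa13 at 3.69 ± 0.61, while Hoxc13 was at 0.0582 and Hoxb13 at 0.0077 CPM per kb. Hoxb13 had 1 count in the control library of mouse 1716 and 0 in the other 5 libraries, which allows up to 0.164 to 0.172 CPM there, counting error only. Hoxd1, at the low-numbered end of its cluster, had 1 count in each of 2 control libraries and none elsewhere. Hoxc11, Hoxc12 and Hoxc13 together had 3 to 10 counts a library.

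Some of these genes share sequence with neighbouring or antisense transcripts. In the GENCODE M21 transcripts, 61.1% of the 31-base words of Hoxd3 and 49.1% of those of Hoxd4 also occur in another gene on the same strand, mainly each other and the read-through model Gm28230. For Hoxa2 the share was 13.7% and for Hoxd11 it was 10.5%, and the other genes were at or under 10%. On the opposite strand, 52.6% of the words of Hoxb3 lie in other genes, mostly Hoxb3os, with 33.9% for Hoxa11, 26.5% for Hoxb2 and 23.6% for Hoxa3. The library kit keeps strand, but use of strand in the counting was not given in the sources used here. These shares are of GENCODE models, while the counts were made on RefSeq transcripts, so they do not measure how many reads were ambiguous. The estimated counts of Hoxd3 were whole numbers in every library, 39, 43 and 15 in control and 48, 46 and 14 in DSS. Those of Hoxd4 were whole in every library but the DSS library of mouse 1716 (65.7). How far the levels of Hoxd3, Hoxd4, Hoxb3 and Hoxa11 are affected was not tested.

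The first comparison asked whether the Hox pattern differed between the inflammatory and the control medium. Summed over all 39 genes, Hox RNA stood at 231.9, 266.8 and 257.8 CPM in the control cultures of mice 1716, 1717 and 1718 and at 226.7, 280.5 and 258.4 CPM in their DSS cultures, so the groups overlapped and the mice kept their order. The filter on low counts kept 32 Hox genes and left out Hoxb13, Hoxc9, Hoxc11, Hoxc12, Hoxc13, Hoxd1 and Hoxd12. Of the 32, edgeR's quasi-likelihood test called 1 higher in DSS and 0 lower (adjusted p under 0.05), which is 3.12%. Over all 19869 genes tested, 13.3% were called, 7.37% higher and 5.91% lower. At an unadjusted p under 0.05 there were 2 Hox genes. DESeq2 called 0 Hox genes and limma-voom called 1. With the mouse as a block 1 gene was called higher and 1 lower, 6.25% of the 32, beside 25% of all genes (12.3% higher and 12.7% lower). The median log2 fold change of the 32 was 0.053, beside 0.01 for all genes, with 21 values above 0 and 11 below. No Hox gene moved further than 0.468 on the log2 scale in the fit without the block. The 95% interval of the change in that fit lay within 1 log2 unit of 0 on both sides for 24 of 32. With the mouse as a block, only the interval of Hoxc10 reached past 1 log2 unit (-0.272 to 1.151). The groups did not overlap for Hoxb4 and Hoxb7, 6.25% of the 32, beside 34.2% of all genes.

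**Figure D2:**
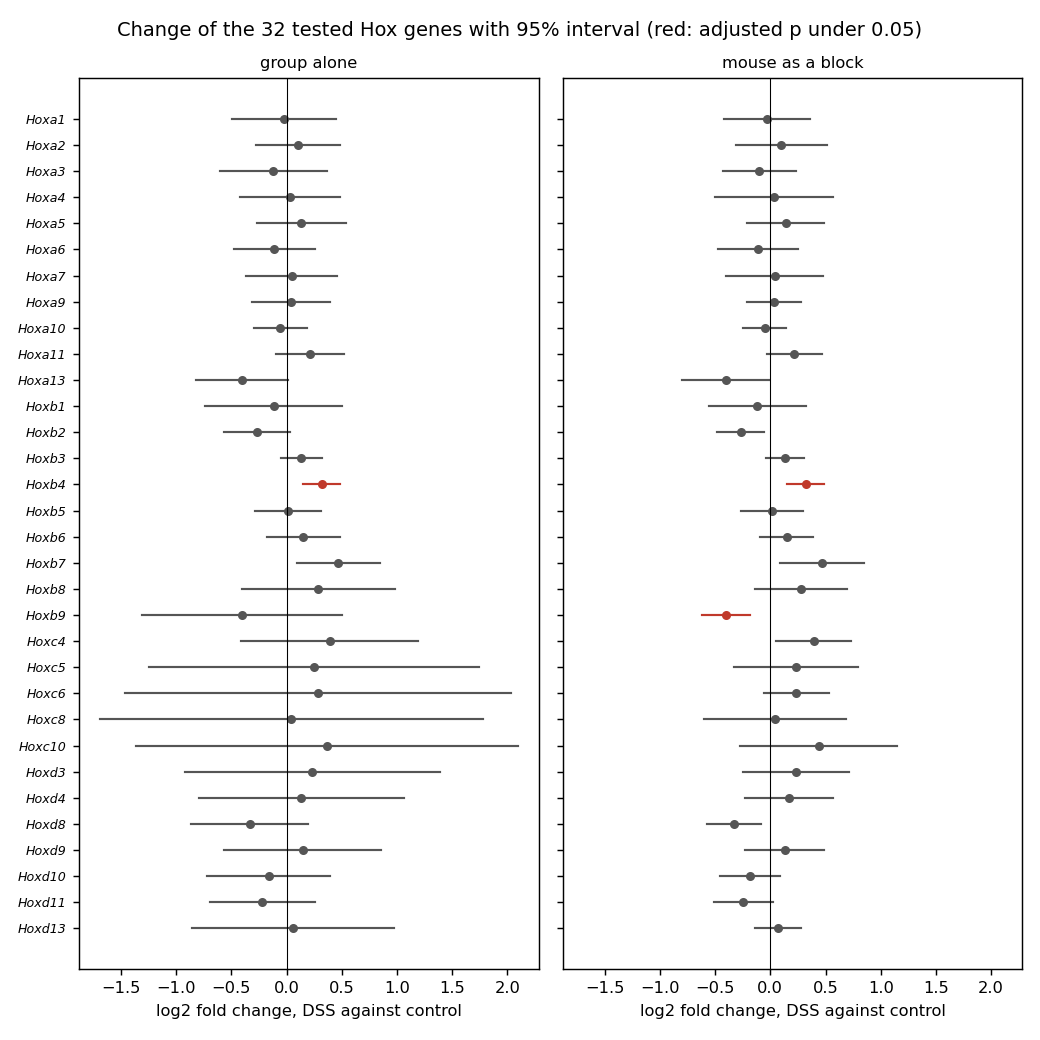
Log2 fold change of DSS against control (horizontal axis) for the 32 tested Hox genes (vertical axis), points with 95% intervals, from the fit with the group alone (left) and with the mouse as a block (right), red where the adjusted p is under 0.05. Hoxb4 is red in both panels and Hoxb9 in the right one, and the Hoxc intervals are the widest on the left.

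Hoxb4, an anterior gene also known for its use in expanding blood stem cells, was the 1 gene called. It stood at 16.72, 16.93 and 16.51 CPM in the control cultures of mice 1716, 1717 and 1718 and at 20.65, 20.60 and 21.34 CPM in their DSS cultures. Every DSS library was above every control library, and the 3 mice lay close together in each group. The log2 fold change was 0.32 ± 0.07 (SE, n = 3 mice), with a 95% interval of 0.15 to 0.49 and an adjusted p of 0.0266 by edgeR (0.0163 with the block). The call is near the threshold: DESeq2 gave adjusted p values of 0.0924 without and 0.192 with the block, and leaving out any library or mouse gave 0.0509 to 0.196. Beside it, Hoxb3, whose gene model overlaps Hoxb4, stood at 32.57, 35.73 and 31.82 CPM in control and 34.62, 36.09 and 39.10 CPM in DSS. Those groups overlapped, with a log2 fold change of 0.13 ± 0.08 and an adjusted p of 0.325 by edgeR.

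Hoxb9, the most posterior Hoxb gene with a clear level, was the gene whose call depended on the pairing. Its control cultures stood at 12.52, 21.97 and 31.49 CPM for mice 1716, 1717 and 1718, and their DSS cultures at 9.13, 19.29 and 21.23 CPM. The groups overlapped widely, but DSS was the lower library in 3 of 3 mice. The log2 fold change was -0.41 ± 0.39 (SE) with an adjusted p of 0.552 by edgeR on the group alone, and -0.40 ± 0.09 with an adjusted p of 0.019 with the mouse as a block.

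Hoxb7 had the largest log2 fold change of the 32, 0.47 ± 0.16 (SE), with an adjusted p of 0.102 by edgeR (0.0766 with the block). It stood at 4.257, 4.0 and 4.701 CPM in control and at 6.619, 6.471 and 4.837 CPM in DSS, so the groups stood apart by little in mouse 1718. Hoxa13, one of the posterior pair of the hindgut, stood at 5.515, 3.948 and 5.012 CPM in control and 3.182, 3.546 and 4.201 CPM in DSS. It was lower in the DSS library of 3 of 3 mice, but the groups overlapped and the adjusted p was 0.189 by edgeR (0.126 with the block). Hoxb7 and Hoxa13 are named here after their values were seen.

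The other genes with high levels did not pass the test. Hoxa10, known for its role in the uterus and in blood cells, stood at 20.09, 16.35 and 20.10 CPM in control and 18.26, 17.69 and 18.36 CPM in DSS, with a log2 fold change of -0.06 ± 0.10 (SE). Hoxa11 stood at 15.78, 12.05 and 17.03 CPM in control and 17.62, 17.01 and 17.18 CPM in DSS, with the control library of mouse 1718 just above the lowest DSS library and an adjusted p of 0.347 by edgeR. Hoxb2 stood at 10.80, 12.64 and 10.11 CPM in control and 9.304, 10.17 and 8.371 CPM in DSS (adjusted p 0.217 by edgeR). The groups overlapped for all 3 genes, by little for Hoxa11 and Hoxb2.

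Hoxa3, a gene of pharyngeal arch patterning, stood at 13.25, 12.68 and 7.604 CPM in control and 9.958, 11.48 and 9.526 CPM in DSS. Its sign turned when the control library of mouse 1716 was left out. Hoxd10, a gene of the limb and lower spinal cord, stood at 9.172, 11.34 and 13.32 CPM in control and 6.619, 11.41 and 12.12 CPM in DSS, and its neighbour Hoxd11 at 12.78, 14.36 and 15.84 CPM in control and 9.196, 11.49 and 16.21 CPM in DSS. Both overlapped between groups, with adjusted p values of 0.713 and 0.537 by edgeR. For Hoxd10 and for Hoxd11 the mouse order was the same in both groups. The remaining Hox genes tested had adjusted p values by edgeR of 0.384 or more, Hoxd8 at 0.384 being the lowest of them (0.0572 with the block).

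Within a gene, the split among transcripts is an estimate and was described without a test. Of 50 Hox transcripts with a mean of at least 20 estimated counts, 7 were higher and 3 lower in every DSS library than in every control library. That is 20% of them, beside 22.9% of the 40694 transcripts of the whole table at that mean (12% higher and 10.9% lower). In Hoxa9, the curated transcript with fewer reads held 46.4, 52.0 and 40.4 estimated counts across the control libraries and 20.2, 19.6 and 0 across those of DSS. The main Hoxa9 transcript stood at 145.6, 129.0 and 106.6 in control and 146.8, 181.4 and 140.0 in DSS, while the gene as a whole overlapped between groups, with an adjusted p of 0.895 by edgeR. For Hoxb7, the values of a predicted transcript were 54.4, 42.8 and 45.2 in control and 94.8, 97.0 and 56.5 in DSS.

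The second comparison was between the 3 mice, which can be read because each gave a culture in both media. This test, an edgeR test on 2 degrees of freedom with the group as the other term, was chosen after differences between the mice had been seen. It compares the cultures of these 3 animals, and its error is the spread between the 2 cultures of a mouse after the medium is allowed for. Of the 32 Hox genes, 9 differed between mice at an adjusted p under 0.05, which is 28.1%, beside 4.42% of all 19869 genes (879 genes). They were Hoxb9, Hoxc4, Hoxc5, Hoxc6, Hoxc8, Hoxc10, Hoxd3, Hoxd4 and Hoxd13, so 5 lie side by side in 1 cluster. Hoxd3 and Hoxd4 share many 31-base words in the GENCODE models. None of the 11 Hoxa genes was called (lowest adjusted p 0.265, for Hoxa3). Both libraries of 1 mouse lay outside the range of the other 4 for 23 of 32 Hox genes, 71.9%, beside 31.3% of all genes. The same mouse was highest in both media for 18 of 32, 56.2%, beside 47.8%.

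**Figure D3:**
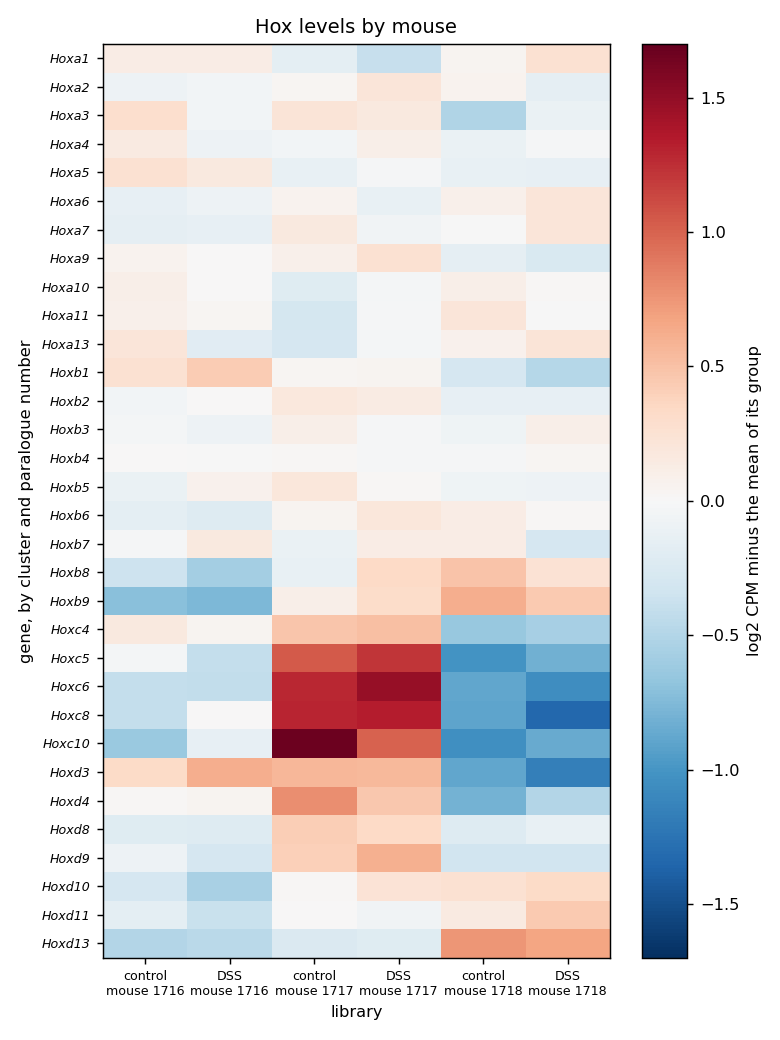
Log2 CPM of each tested Hox gene minus the mean of its group (colour scale), genes in rows by cluster and paralogue number and libraries in columns, the 2 libraries of a mouse side by side. Hoxc5 to Hoxc10 are high in both libraries of mouse 1717, and Hoxd13 and Hoxb9 are high in both of mouse 1718.

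Mouse 1717 had the highest Hoxc level in both media. Hoxc6, a gene of the thoracic region and the strongest of its cluster in these cultures, stood at 4.013, 12.79 and 2.870 CPM in the control cultures of mice 1716, 1717 and 1718 and at 4.466, 16.65 and 2.871 CPM in their DSS cultures. Both libraries of mouse 1717 were far above the other 4, by 2.07 ± 0.12 (SE) on the log2 scale, with an adjusted p of 0.00161 by edgeR between the mice. Hoxc8 followed the same order in the control cultures, at 0.579, 1.863 and 0.410 CPM, and in DSS at 0.742, 1.873 and 0.295 CPM (adjusted p 0.0227 by edgeR). Hoxc5 had an adjusted p of 0.024, Hoxc10 of 0.0325 and Hoxc4 of 0.0399 by the same edgeR test. Hoxc9, which was not tested, had 6, 22 and 4 counts in control and 4, 20 and 5 in DSS, again most in mouse 1717. Summed over Hoxc4 to Hoxc10 the level was 9.66, 24.3 and 6.26 CPM in control and 11.4, 30.3 and 7.41 CPM in DSS. Hoxc11 to Hoxc13, at the posterior end of the cluster, stayed at 3 to 10 counts in every library.

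Along the Hoxd cluster the mouse with the highest level differed between genes. Hoxd13, the most posterior Hoxd gene, stood at 7.601, 9.042 and 18.0 CPM in control and 8.217, 9.820 and 17.98 CPM in DSS. Both libraries of mouse 1718 were above the other 4, by 1.059 ± 0.089 (SE) on the log2 scale, with an adjusted p of 0.00394 by edgeR between the mice. Hoxd4 stood at 3.142, 5.370 and 1.777 CPM in control and 3.747, 4.995 and 2.561 CPM in DSS (adjusted p 0.0428 by edgeR), and there mouse 1718 was the lowest in both media. Hoxd3 stood at 1.976, 2.356 and 0.860 CPM in control and 2.739, 2.611 and 0.797 CPM in DSS (adjusted p 0.037 by edgeR), again lowest in mouse 1718. Summed over Hoxd1 to Hoxd9 the level was 15.8, 23.6 and 12.7 CPM in control and 15.3, 21.9 and 12.5 CPM in DSS. Hoxd10 to Hoxd13 summed to 29.9, 35.1 and 47.6 CPM in control and 24.2, 33.6 and 46.9 CPM in DSS, so mouse 1718 had the least of the first sum and the most of the second.

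Hoxb9 shared the order of Hoxd13, lowest in mouse 1716 and highest in mouse 1718 in both media, with an adjusted p of 0.00521 by edgeR between the mice. Hoxb4 lay at the other extreme, with an adjusted p of 0.993 by edgeR between the mice.

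**Figure D4:**
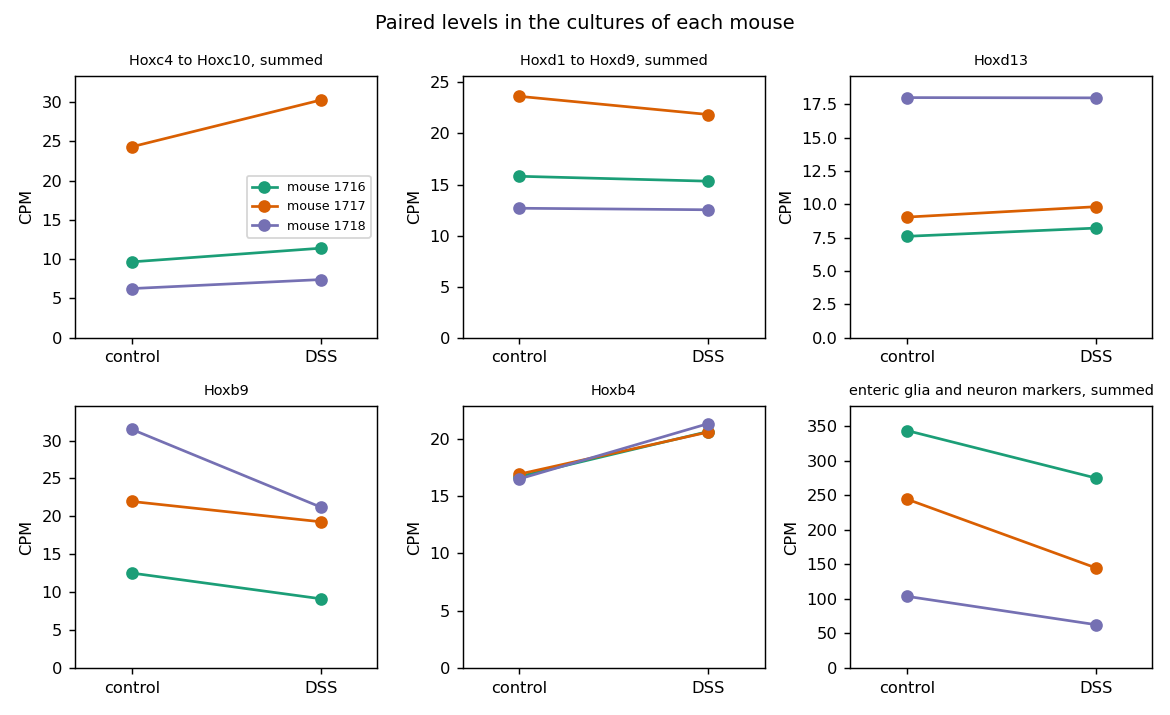
CPM (vertical axis, from 0) in the control and DSS culture of each mouse (joined points, 1 colour per mouse) for summed Hoxc4 to Hoxc10, summed Hoxd1 to Hoxd9, Hoxd13, Hoxb9, Hoxb4 and 7 summed enteric glia and neuron markers. Mouse 1717 is highest for the first pair of sums, mouse 1718 for Hoxd13 and Hoxb9, and mouse 1716 for the glial markers.

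How far these calls hold depends on which mouse is kept. Hoxb9, Hoxc6 and Hoxd13 kept their call in every alternative but 1 each: Hoxb9 without mouse 1716 (adjusted p 0.144 by edgeR), Hoxc6 without mouse 1717 (0.154) and Hoxd13 without mouse 1718 (0.514). The other 6 lost it in 4 to 7 alternatives. The count fell from 9 to 5 Hox genes without mouse 1717, to 2 without mouse 1718, and to 3 without the control or the DSS library of mouse 1718. DESeq2's likelihood ratio test called 3 Hox genes and limma-voom 9. Markers of other cells also differed between the mice. The 7 glial and neuronal markers summed to 343.5, 244.2 and 103.6 CPM in the control cultures of mice 1716, 1717 and 1718 and to 274.8, 144.8 and 62.59 CPM in DSS. Of the 6 of these markers tested, 5 differed between mice by edgeR, beside 4.42% of all genes, and Elavl4, a neuron marker, was under 1 CPM throughout. Their order over the mice was the reverse of that of Hoxd13 and Hoxb9 in both media. Leukocyte markers summed to 1474, 2180 and 2013 CPM in control and 969.2, 1446 and 941.4 CPM in DSS, and 0 of the 6 tested were called between mice. Their sum was highest in mouse 1717 in both media, as the Hoxc genes were. The same held for the fibroblast marker Thy1 and the smooth muscle marker Des, which were called between mice (adjusted p 0.0311 and 0.00859 by edgeR). Des stood at 33.80, 35.18 and 17.71 CPM in control and 16.03, 22.14 and 8.365 CPM in DSS, the mouse order of Hoxc6. No other marker of those 2 cell types was called between mice. The part of these markers' cells in the Hox differences was not tested.

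The TALE homeodomain class holds the Hox cofactors Pbx and Meis as well as other genes. All 11 TALE genes listed were tested, and 1 rose and 2 fell in DSS by edgeR. That is 27.3% beside 13.3% of all genes (with the block 45.5% beside 25%). Tgif1, a repressor of the TALE class, rose from 49.15, 53.70 and 55.72 CPM to 77.43, 87.64 and 82.51 CPM, a log2 fold change of 0.64 ± 0.08 (SE) with an adjusted p of 0.00303 by edgeR. Pbx3, a partner of Hox proteins on DNA, fell from 18.60, 18.74 and 18.52 CPM to 14.84, 14.30 and 14.17 CPM (adjusted p 0.0189 by edgeR), and Pknox2 from 28.63, 25.81 and 24.25 CPM to 20.77, 18.50 and 21.06 CPM (adjusted p 0.0372). None of these 3 genes overlapped between groups, which held for 34.2% of all genes and is likely for any gene called. With the mouse as a block Meis1 and Meis2 were called as well, with log2 fold changes of 0.34 and 0.51 and adjusted p values of 0.0115 and 0.0155 by edgeR. The list's median log2 fold change was 0.082.

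Of 27 Polycomb genes, 4 rose and 0 fell, 14.8% beside 13.3% of all genes called. Cbx7, a chromodomain reader of methylated histone H3 lysine 27, rose from 6.346, 5.135 and 3.230 CPM to 11.90, 10.77 and 10.26 CPM, a log2 fold change of 1.16 ± 0.22 (SE) with an adjusted p of 0.0152 by edgeR. Mtf2 and Phf1, accessory factors of the methylating complex, rose by log2 fold changes of 0.45 and 0.41, and Phc2, of the ubiquitylating complex, by 0.39. Phf19 and Bmi1, of the same list, went the other way, with log2 fold changes of -0.68 and -0.365 and adjusted p values of 0.115 and 0.0959 by edgeR. Both were called lower with the mouse as a block (adjusted p 0.0038 and 0.0102 by edgeR). The calls for the catalytic subunits of the methylating complex depended on the pairing. Ezh2 had a log2 fold change of -0.30 ± 0.19 (SE) with an adjusted p of 0.348 by edgeR, and was called lower with the mouse as a block (adjusted p 0.023). Ezh1 had 0.32 ± 0.11 with an adjusted p of 0.102, and was called higher with the block (0.0109). With the mouse as a block 5 Polycomb genes were higher and 3 lower, 29.6% beside 25% of all genes, and the list's median was 0.037 without it. Of 13 trithorax group genes and demethylases of histone H3 lysine 27, 1 fell, 7.7% beside 13.3% of all genes called: Kdm6b, a demethylase, from 128.1, 122.7 and 149.0 CPM to 97.50, 97.80 and 92.96 CPM, a log2 fold change of -0.47 ± 0.09 (SE, adjusted p 0.012 by edgeR). The next smallest p in that list was that of Kmt2a, a histone methyltransferase, with a log2 fold change of 0.18 and an adjusted p of 0.136. The list's median was -0.01.

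Of 18 retinoic acid genes, 15 were tested, and 3 fell and 0 rose, 20% of them, beside 13.3% of all genes called (5.91% lower). Aldh1a3, an enzyme that makes retinoic acid, fell from 28.94, 23.95 and 33.02 CPM to 10.27, 7.606 and 11.27 CPM, a log2 fold change of -1.56 ± 0.17 (SE) with an adjusted p of 0.00233 by edgeR. Rdh10, which carries out the step before it, fell by 0.72 on the log2 scale (adjusted p 0.0245), and Crabp2, a carrier of retinoic acid, by 1.37 (adjusted p 0.0462). All 3 were lower in every DSS library than in every control library, which is likely for genes called lower. Over all genes, 34.2% did not overlap between the groups in either direction. Cyp26b1, which degrades retinoic acid, had a log2 fold change of -0.84 ± 0.49 with an adjusted p of 0.313 by edgeR, and was called lower with the mouse as a block (-0.95, adjusted p 0.00908). With that block 1 gene of the list was higher and 5 lower, 40% beside 25% of all genes, and the list's median was -0.076 without it.

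Of the 9 fibroblast markers 5 fell and 1 rose in DSS by edgeR, as named above, beside 13.3% of all genes called. Their part in the partner and regulator results was not tested. Of the 11 partner and regulator calls, 10 were lost when at least 1 library or mouse was left out, and Aldh1a3 kept its call in all 9 such fits. The highest adjusted p of these 10 in such a fit ran from 0.0527 for Tgif1 to 0.305 for Crabp2. The count of calls was 6 with mouse 1716 left out, 1 with mouse 1717 left out and 3 with mouse 1718 left out. It was 6 or 7 with any 1 control library or the DSS library of mouse 1717 left out. The block raised them to 21.

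The ParaHox and Evx genes were mostly at or near 0: of 8 listed, Evx2, which lies beside Hoxd13, was tested, and Cdx1, Cdx2 and Cdx4 had no count in any library. Evx2 stood at 0.572, 1.059 and 1.376 CPM in control and 0.457, 1.041 and 2.416 CPM in DSS, in the same mouse order as Hoxd13, and did not pass the test in DSS (adjusted p 0.715 by edgeR). Of 17 noncoding RNAs of the clusters, 7 were tested and 0 were called, beside 13.3% of all genes. With the mouse as a block 1 was called, 14.3% of the 7 beside 25% of all genes. Hoxa11os, the antisense partner of Hoxa11, stood at 13.73, 13.20 and 16.25 CPM in control and 16.61, 16.90 and 19.69 CPM in DSS. It was higher in 3 of 3 mice and did not overlap between the groups, which held for 34.2% of all genes. Its log2 fold change was 0.30 with an adjusted p of 0.133 by edgeR, and 0.0251 with the mouse as a block. Hoxaas3 had the next smallest p, with a log2 fold change of 0.51 and an adjusted p of 0.273.

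**Figure D5:**
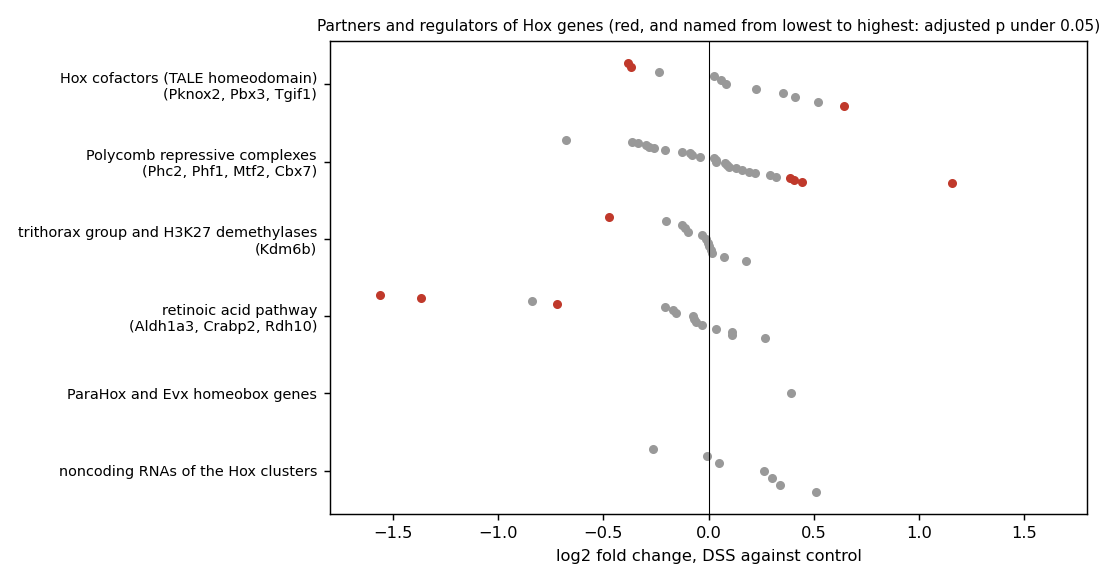
Log2 fold change of DSS against control (horizontal axis) for each tested gene of the 6 lists of partners, regulators and neighbours (vertical axis), 1 point per gene, red where the adjusted p is under 0.05 by edgeR. The called genes are named under their list, and Aldh1a3 and Crabp2 lie furthest to the left and Cbx7 furthest to the right.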

How the data were processed

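Ribosomal RNA was removed from the RNA of 6 cultures and strand-keeping libraries were sequenced, per the labels' protocols. The authors deposited estimated counts per transcript for 120299 RefSeq transcripts, unscaled. Per the submitters' processing notes they came from kallisto, with GRCm38 and mm10 named; a version was not given in the sources used here. Counts were summed per gene and rounded, filtered with filterByExpr of edgeR (a CPM equal to 10 counts at the median library size in at least 3 libraries, and 15 counts in total), given TMM factors and tested by edgeR's quasi-likelihood test on the group, adjusted by Benjamini-Hochberg over the 19869 genes kept, with calls at 0.05. A log2 fold change's SE is its size over the square root of F. On simulated data the changes put in were recovered, and false calls exceeded the nominal share, so calls near the threshold are weak. For the group tests the simulation held no difference between mice and took its spread from the fit with the block. Its changes were larger than that of any Hox gene between the media. It therefore cannot show how well Hox changes of the sizes seen between the media are recovered. Levels per kb used lengths of GENCODE M21 transcripts paired with curated RefSeq transcripts. Predicted transcripts had no length of their own there, so their counts were divided by the length of the gene's curated ones. All 39 Hox genes matched the RefSeq table of GRCm38.

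Groups and mouse numbers come from the labels, and pairing from the shared animal: deviations from group means correlated at 0.352, 0.212 and 0.463 within a mouse and at -0.36 to 0.022 between mice (across genes). P-values measure the spread between these cultures. The genes named are every Hox gene called with or without the block, the 10 with the highest mean CPM, and in each partner list those called and the 2 with the smallest p. Some partner genes called with the block alone are named too. The members and lists were chosen with earlier results of these data known. Alternatives were the block, DESeq2, limma-voom, other scaling and filters, and leaving out libraries or mice.

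Tables were made in Python 3.11.15 with numpy 2.4.6 and pandas 2.3.3, figures with matplotlib 3.10.9, and fits in R 4.3.3 with DESeq2 1.42.0, limma 3.58.1 and edgeR 4.0.16.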

Additional observations from a re-analysis of the deposited data

How the results depend on the processing

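The mouse as a block is the paired analysis. It moved the Hox genes called in DSS from 1 to 2, the partner and regulator genes from 11 to 21 and all genes from 2639 to 4965. DESeq2 called 0 Hox genes with and without the block. Leaving out libraries or mice gave 0 to 1 Hox genes (the 1 was not Hoxb4), 1 to 13 partner genes and 649 to 2418 of all genes, the lowest without mouse 1717. The count of Hox genes that differed between mice was 9, with 3 by DESeq2 and 2 to 12 with libraries or mice left out. For all genes that count was 879, and 99 to 1633 with libraries or mice left out. Log2 fold changes that turned sign with a library or mouse left out, none of them called, were those of Hoxa3 (-0.331 to 0.046, above 0 without the control library or both libraries of mouse 1716), Hoxd10 (-0.321 to 0.065, above 0 without the DSS library of mouse 1716) and Hoxd13 (-0.354 to 0.528, below 0 without the control library of mouse 1716 or 1717 or the DSS library of mouse 1718). With curated transcripts alone the control shares were 38.2% for Hoxa, 34.5% for Hoxb, 25.1% for Hoxd, 10.6% for paralogues 1 to 3 and 56.3% for paralogues 9 to 13. With no length scaling, an alternative added after the data were seen, paralogues 1 to 3 held 25.9% and 4 to 8 held 29.3%. Apart from the fewer libraries in the leave-out fits, the cause was not tested. Where a leave-out leaves 1 library in an arm or mouse, its spread is assumed to be that of the others. At these depths Hox genes of few counts, such as Hoxc11 to Hoxc13, could not be compared.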
